A study of Macaca fascicularis with 10 samples.

Results

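Kinesins, centromere and kinetochore proteins of the CENP series, condensin subunits, SMC proteins and a set of spindle and checkpoint genes were followed across haploid and diploid embryonic stem cells (ESCs) and somatic cells of the cynomolgus monkey (Macaca fascicularis). Genes were taken by symbol: every annotated symbol starting with KIF and a digit or C, with CENP and a letter, with NCAP, or with SMC and a digit, and also BUB1, BUB1B, MAD2L1, AURKA, AURKB, PLK1, TTK, TPX2, NUSAP1 and TOP2A. Where several probe sets carried only that symbol, the 1 with the highest mean log2 signal over the 10 arrays stood for the gene. The rule found 66 of the 14132 genes named on the array, and 59 of them passed a filter that asked for a signal above the array's median on at least 2 arrays. The genes that did not pass were KIF3A, KIF5A, KIF6, KIF12, KIF25, KIF27 and SMC1B. BUB1, BUB1B, PLK1, TTK and NUSAP1 from the named set, and KIF11, KIF14, KIF15, KIF18B, KIF20A, NCAPD2 and NCAPH among others, have no probe set under that symbol in the annotation used here and were not analysed.

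RNA of 10 samples was hybridised to Affymetrix Rhesus Macaque arrays, 1 sample to an array. Parthenogenetic haploid ESCs (PG-haESC, 5 arrays) were derived from blastocysts without a sperm genome and are labelled haploid. They came from the line MPH1 at passages 8, 11, 7 and 9 (replicates 1 to 4) and the line MPH2 at passage 4 (replicate 5). Diploid ESCs of embryos fertilised by sperm injection into the oocyte (ICSI ESC, 3 arrays) came from the lines MES1 at passage 12, MES2 at passage 4 and MES3 at passage 4. Diploid cells labelled female somatic fibroblasts (2 arrays) came from 1 line at passages 14 and 15. Per the labels, PG-haESCs were grown on feeder cells with Y27635 and Thiazovivin, and no genotype change or further treatment is given for any group. The share of haploid cells in a PG-haESC culture at collection, the sex of the ICSI ESC lines and the feeder species are not given in the sources used here. Nothing ties arrays of 1 line to separate cultures, so p-values measure only the spread between these samples, which may in part be technical.

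Cell division rests on these proteins. At each centromere, nucleosomes with the histone variant CENP-A carry the constitutive network of CENP proteins, on which the kinetochore is built and to which spindle microtubules attach. Mitotic kinesins move chromosomes or shape the spindle, Aurora kinases and MAD2 control and survey attachment, condensin compacts chromosomes and cohesin holds sister chromatids together, while many other kinesins carry cargo along microtubules in cells that do not divide. Pluripotent stem cells are known for a short cell cycle with much of the population in S phase, G2 or mitosis.

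The labels were first set against marker genes. The 7 measured pluripotency markers had a mean log2 signal of 12.28 to 13.01 on PG-haESC arrays and of 11.79 to 12.75 on ICSI ESC arrays, against 5.40 and 6.02 on fibroblast arrays. The 8 measured fibroblast or feeder markers had a summed signal of 13230 to 59200 on PG-haESC arrays, 135300, 28110 and 32930 on the MES1, MES2 and MES3 arrays, and 167000 and 166200 on fibroblast arrays. MES1 thus stood apart from the other ESC arrays and close to the fibroblast arrays in these markers. The 8 measured epidermal markers had a summed signal of 3237 to 3827 on PG-haESC arrays and 3832 to 4868 on ICSI ESC arrays, against 314200 and 316300 on fibroblast arrays, where 8 of 8 lay above the array median. The leukocyte gene PTPRC lay at or below 45.01 on each ESC array and gave 1412 and 1441 on fibroblast arrays. The endothelial gene PECAM1 gave at most 403.7 on ESC arrays, against 2842 and 2823 on fibroblast arrays. As geometric means in PG-haESCs, ICSI ESCs and fibroblasts, VWF had 37.31, 70.73 and 1213, and CDH5 had 193.6, 32.06 and 476.1. CDH5 was not called in PG-haESCs. KDR, on the same endothelial list, ran the other way with 78.99, 82.94 and 30.09 and was not called. No marker value was exactly 0. The label "fibroblast" is kept as the group's name, but its RNA held markers of skin epidermis and of other cell types, and their part in the differences from ESCs was not tested.

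Against the fibroblast arrays, most genes of the division machinery had higher signal in both kinds of ESC. In PG-haESCs 35 of the 59 genes tested were called higher and 3 lower by limma (adjusted p under 0.05 over all probe sets tested), where 23.0% of all 11639 genes tested were higher and 17.3% lower. In ICSI ESCs 37 were higher and 3 lower, where 22.6% of all genes tested were higher and 17.0% lower. The median log2 change over the 59 genes was 1.75 for PG-haESCs and 1.45 for ICSI ESCs, beside 0.06 and 0.08 over all genes tested. For 43 genes all PG-haESC arrays lay above both fibroblast arrays and for 6 all lay below (34.0% and 30.2% of all genes tested), and for ICSI ESC arrays the numbers were 42 and 9 (36.7% and 32.7%). Both comparisons use the same 2 fibroblast arrays, so they are not independent of each other. Called higher in both were 34 genes and called lower in both were 2, KIFC2 and KIF13A. The share of all genes tested called in both was not counted, and can be at most 22.6% higher and 17.0% lower.

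The filter bears on these counts, since a gene that is dim in fibroblasts could pass only through the ESC arrays. Of the 59 genes tested, 43 lay above the array median on all 10 arrays, and of these 28 were called higher and 1 lower in PG-haESCs (28.8% and 16.5% among the 7555 genes of the array with the same property). In ICSI ESCs 29 of the 43 were higher and 2 lower (28.4% and 16.1%). With no filter, all 66 genes entered, and the median change was 1.38 in PG-haESCs and 1.31 in ICSI ESCs. With each signal under its array's median raised to that median, it was 1.38 and 1.23 over the 59 genes. The arrays were scaled to a common mean and measure RNA of whole cultures, so fewer dividing cells and less of a transcript per dividing cell cannot be told apart.

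**Figure D1:**
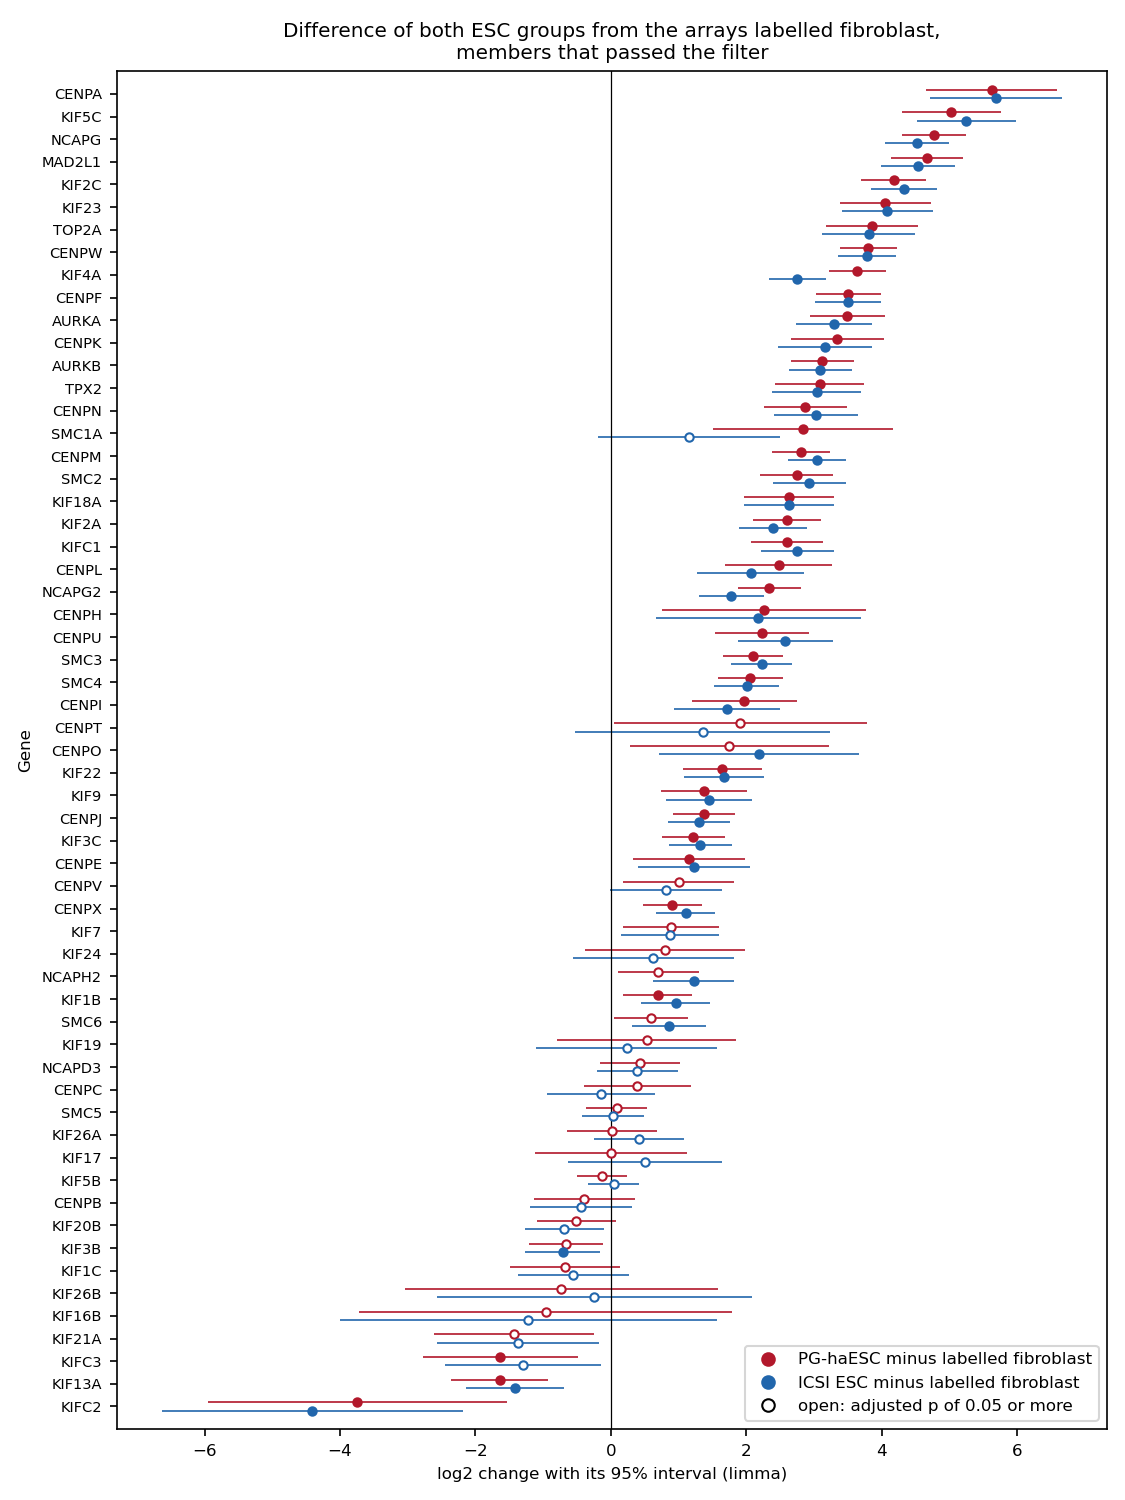
Difference of PG-haESC and of ICSI ESC arrays from fibroblast arrays for the 59 genes that passed the filter. The x axis is the log2 change from limma with its 95% interval, the y axis lists the genes, and open points have an adjusted p of 0.05 or more. For genes dim on both fibroblast arrays, such as CENPA and KIF5C, the plotted value is the fitted one and no bound; most points lie right of 0 in both ESC groups, and the 2 genes called lower in both are KIFC2 and KIF13A.

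Over the 41 genes that are not transport or other kinesins, the mean log2 signal was 10.67, 10.49, 10.65, 10.51 and 10.59 on the PG-haESC arrays, 10.21, 10.66 and 10.48 on the ICSI ESC arrays and 8.33 and 8.27 on the fibroblast arrays. The ESC groups overlapped, MES1 was the lowest ESC array, and both fibroblast arrays lay below all 8 ESC arrays. Of the 40 of these genes that were tested, 30 were called higher and 0 lower in PG-haESCs, and 32 higher and 0 lower in ICSI ESCs. Of all genes tested, 23.0% were called higher and 17.3% lower in PG-haESCs, and 22.6% and 17.0% in ICSI ESCs. At an unadjusted p under 0.05 there were 35 and 33 of the 40 genes, in either direction (49.3% and 49.4% of all genes tested).

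The mitotic kinases and the checkpoint protein were each higher in ESCs. The Aurora kinase AURKA, which matures centrosomes and builds the spindle, had a signal of 2840, 2588, 2971, 2633 and 4488 on PG-haESC arrays, 2948, 2677 and 2798 on ICSI ESC arrays, against 249.7 and 329.0 on fibroblast arrays. Each ESC array lay far above both fibroblast arrays, and the MPH2 array was the highest. The log2 change was 3.49 ± 0.26 in PG-haESCs (SE, adjusted p = 1.24e-06) and 3.29 ± 0.26 in ICSI ESCs (adjusted p = 2.19e-06). AURKB, the enzyme of the chromosomal passenger complex that corrects faulty attachments, had 3322 to 4513 on PG-haESC arrays, 3273 to 4038 on ICSI ESC arrays, against 500.4 and 385.9 on fibroblast arrays, a log2 change of 3.12 ± 0.21 and 3.09 ± 0.22. With all its probe sets averaged, AURKB was not called in PG-haESCs (adjusted p = 0.0595).

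MAD2L1, which encodes the checkpoint protein that delays anaphase while kinetochores are unattached, had 6477, 6769, 9788, 8556 and 6325 on PG-haESC arrays, 6014, 7652 and 6379 on ICSI ESC arrays, against 310.8 and 264.1 on fibroblast arrays. No ESC array came near the fibroblast arrays, and the ESC groups overlapped. The log2 change was 4.67 ± 0.25 in PG-haESCs (adjusted p = 1.15e-07) and 4.54 ± 0.25 in ICSI ESCs (adjusted p = 1.59e-07). Its other tested probe set gave 4.78 and 4.67.

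Both spindle and chromosome genes measured from the named set also rose. TOP2A, the topoisomerase that untangles sister DNA, had 17420, 9362, 12910, 11470 and 16260 on PG-haESC arrays, 9774, 14480 and 15830 on ICSI ESC arrays, against 867.5 and 1004 on fibroblast arrays (log2 change 3.86 ± 0.31 and 3.81 ± 0.32). TPX2, a spindle assembly factor that activates AURKA, had 432.6 to 617.4 on PG-haESC arrays and 461.9 to 611.5 on ICSI ESC arrays. On fibroblast arrays it had 64.26 and 60.46, at or below the array median, so only a bound can be given: TPX2 was at least 4.45-fold higher in PG-haESCs (adjusted p = 1.13e-05) and at least 4.43-fold higher in ICSI ESCs (adjusted p = 1.44e-05). Such bounds raise the dim group's signals to their array's median. They are lower limits for the chosen probe set, since the deposited table carries no detection calls.

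**Figure D2:**
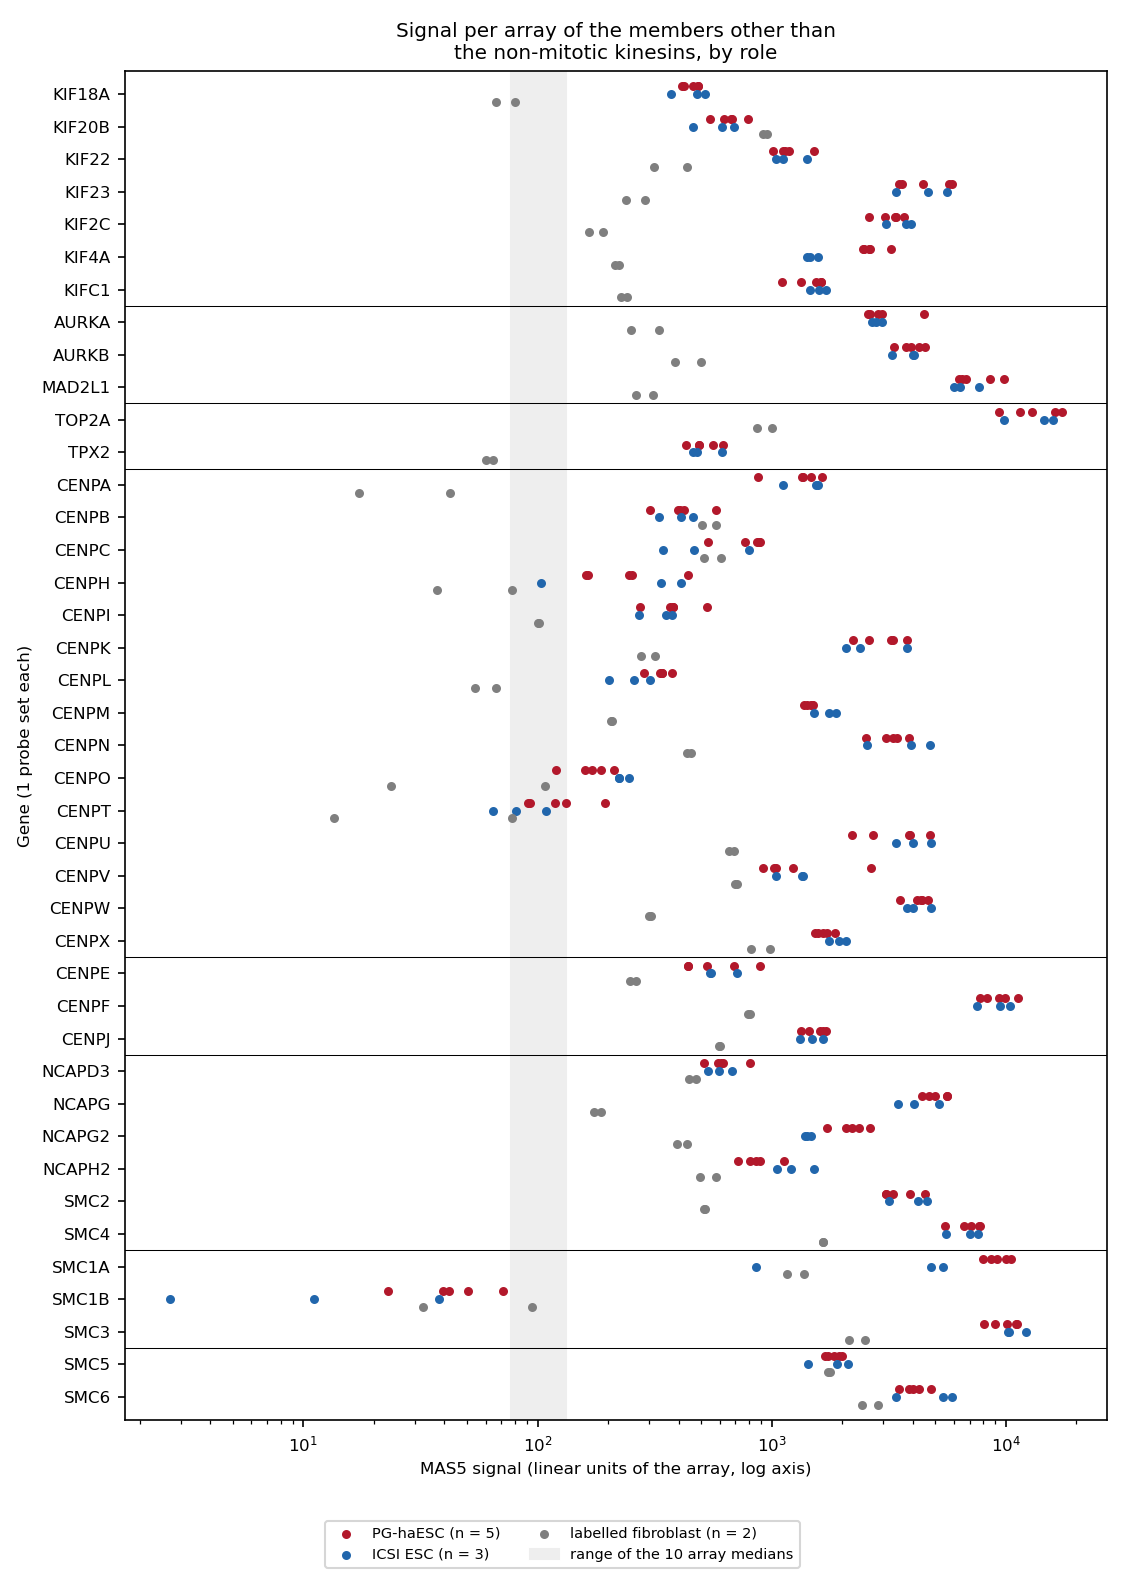
MAS5 signal of each array, on a log axis, for the 41 kinetochore, spindle, condensin and SMC genes and mitotic kinesins, with groups of arrays as colours and the range of the 10 array medians shaded. PG-haESC and ICSI ESC points lie together for nearly every gene, while the fibroblast points of genes such as NCAPG, MAD2L1 and KIF2C lie to the left of them and those of CENPA fall in or below the shaded range.

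Of the 7 mitotic kinesins measured, 6 were called higher in both kinds of ESC, beside 23.0% and 22.6% of all genes tested. KIF2C, a depolymerase that frees wrongly attached microtubules at the centromere, had 3391, 2603, 3689, 3054 and 3346 on PG-haESC arrays, 3070, 3931 and 3733 on ICSI ESC arrays, against 190.6 and 165.9 on fibroblast arrays. The groups of ESCs interleaved and the fibroblast arrays lay far below. The log2 change of KIF2C was 4.18 ± 0.22 in PG-haESCs (adjusted p = 1.19e-07) and 4.32 ± 0.23 in ICSI ESCs (adjusted p = 1.03e-07). KIF23, a part of the centralspindlin complex of cytokinesis, had 3490 to 5878 on PG-haESC arrays, 3400 to 5586 on ICSI ESC arrays, against 239.5 and 287.2 on fibroblast arrays, with log2 changes of 4.05 ± 0.31 and 4.08 ± 0.31. The chromokinesin KIF4A changed by 3.64 ± 0.19 in PG-haESCs and by 2.75 ± 0.20 in ICSI ESCs, and its values are given with the comparison of haploid and diploid ESCs.

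Smaller log2 changes were found for KIFC1, a minus-end motor that focuses spindle poles (2.60 ± 0.25 and 2.75 ± 0.25), and for the chromokinesin KIF22 (1.64 ± 0.27 and 1.67 ± 0.27). KIF18A, which dampens chromosome movements at the spindle equator, was dim on both fibroblast arrays and at least 3.90-fold higher in PG-haESCs and at least 3.92-fold higher in ICSI ESCs. KIF20B, a motor of late cytokinesis, was the exception. Its chosen probe set had 545.1 to 788.3 on PG-haESC arrays, 463.4 to 693.0 on ICSI ESC arrays, against 957.4 and 918.6 on fibroblast arrays, so that every ESC array lay below both fibroblast arrays, with a log2 change of -0.51 (adjusted p = 0.173) and -0.69 (adjusted p = 0.0699). The other 3 probe sets of KIF20B were called higher, by 1.81 to 2.49 on the log2 scale in PG-haESCs and by 1.56 to 2.01 in ICSI ESCs. No direction is therefore given for KIF20B.

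Among the 15 centromere-bound CENP genes, 10 were higher in PG-haESCs and 11 in ICSI ESCs, and none was called lower (5 and 4 were not called). Of all genes tested, 23.0% and 22.6% were called higher, and 17.3% and 17.0% lower. CENPA encodes the histone H3 variant that marks the centromere. It had 1646, 869.8, 1366, 1348 and 1475 on PG-haESC arrays, 1570, 1543 and 1112 on ICSI ESC arrays, against 42.17 and 17.30 on fibroblast arrays, both at or below the array median. All 8 ESC arrays lay well above, and CENPA was at least 11.3-fold higher in PG-haESCs (adjusted p = 2.25e-06) and at least 12.02-fold higher in ICSI ESCs (adjusted p = 2.35e-06). CENPW, the histone-fold partner of CENP-T, had 3534 to 4629 on PG-haESC arrays, 3785 to 4774 on ICSI ESC arrays, against 299.8 and 306.3 on fibroblast arrays, with log2 changes of 3.80 ± 0.20 (adjusted p = 1.02e-07) and 3.78 ± 0.20 (adjusted p = 1.08e-07).

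Genes of 1 subcomplex did not all have the same size of change. CENPK, CENPM, CENPH and CENPI encode subunits of 1 complex of the constitutive network. CENPK changed by 3.34 ± 0.32 in PG-haESCs and 3.16 ± 0.32 in ICSI ESCs, and CENPM by 2.81 ± 0.20 and 3.05 ± 0.20. CENPI was dim in fibroblasts and at least 3.27-fold and 2.86-fold higher, and was not called with its probe sets averaged (adjusted p = 0.107 and 0.528). CENPH had 163.9, 160.3, 253.4, 246.2 and 440.4 on PG-haESC arrays, 103.6, 411.8 and 337.4 on ICSI ESC arrays, against 37.09 and 78.09 on fibroblast arrays, so its lowest ESC value, on MES1, fell below that array's median of 117.3. CENPH was called higher in both groups (at least 2.03-fold and 2.10-fold, adjusted p = 0.0242 and 0.0303). The CENPH call held under 18 of 22 alternatives in PG-haESCs and 15 of 21 in ICSI ESCs (adjusted p up to 0.143 and 0.158). It was lost in both comparisons without fibroblast replicate 1, with arrays averaged per line and with dim signals raised to the array median, in PG-haESCs also without the MPH2 array, and in ICSI ESCs also without MES2 or MES3 and without a variance trend.

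CENPN and CENPL, a pair that reads the CENP-A nucleosome, were both higher. CENPN changed by 2.87 ± 0.28 and 3.03 ± 0.28. Of its 3 tested probe sets 2 were called higher in each comparison, and the dimmest was not called (-0.582 and -0.017). With its chosen probe set, CENPL was at least 2.88-fold higher in PG-haESCs and at least 2.17-fold higher in ICSI ESCs. The other tested CENPL probe set changed by 0.846 (adjusted p = 0.1715) and 0.862 (adjusted p = 0.1663) on the log2 scale and was not called. CENPU, a kinetochore protein that recruits the kinase PLK1, changed by 2.23 ± 0.32 and 2.58 ± 0.32 with its chosen probe set. Its other tested probe set, with lower signal, gave 0.181 (adjusted p = 0.811) and -0.468 (adjusted p = 0.4906) and was not called. The CENPU call held under 22 of 22 and 21 of 21 alternatives, averaged probe sets among them. CENPX, a histone-fold protein with a further role in DNA repair, changed by 0.91 ± 0.20 and 1.10 ± 0.20. With arrays averaged per line CENPX was not called in PG-haESCs (adjusted p = 0.0562). CENPO, a partner of CENP-U in the same complex, was dim in fibroblasts and was called in ICSI ESCs alone (at least 1.99-fold, adjusted p = 0.0265), with an adjusted p of 0.0652 in PG-haESCs. The ICSI ESC call of CENPO was lost without fibroblast replicate 1, without MES3, without PG-haESC replicate 2 and with dim signals raised to the array median (adjusted p up to 0.145).

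The remaining 4 were not called in either comparison. CENPB, which binds a sequence motif in centromeric repeats, had 302.7 to 579.6 on PG-haESC arrays, 329.6 to 463.0 on ICSI ESC arrays, against 577.7 and 504.6 on fibroblast arrays (log2 change -0.39 ± 0.34 and -0.44 ± 0.34). CENPC, the scaffold that links CENP-A nucleosomes to the outer kinetochore, changed by 0.39 ± 0.36 and -0.15 ± 0.37. CENPV, whose signal was 919.9 to 2642 on PG-haESC arrays, 1045 to 1357 on ICSI ESC arrays, against 696.7 and 709.5 on fibroblast arrays, changed by 1.00 ± 0.38 (adjusted p = 0.0596) and 0.82 ± 0.38 (adjusted p = 0.121). CENPT, which links centromeric DNA to microtubule-binding proteins, lay near the array medians, with 90.86 to 194.7, 64.44 to 109.1 and 77.89 and 13.53 in the same order of groups.

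The 3 CENP genes whose proteins act at the outer kinetochore or the centrosome were called higher in both comparisons, beside 23.0% and 22.6% of all genes tested. CENPF, which accumulates toward mitosis and joins the kinetochore, had 7739 to 11210 on PG-haESC arrays, 7507 to 10410 on ICSI ESC arrays, against 792.4 and 806.9 on fibroblast arrays, with an adjusted p of 3.78e-07 and 4.85e-07. CENPJ, a centriole assembly protein, changed by 1.38 ± 0.21 and 1.30 ± 0.21. CENPE, a kinesin that brings chromosomes to the spindle equator, had 691.6, 891.2, 437.0, 441.0 and 530.3 on PG-haESC arrays, 711.5, 549.2 and 546.6 on ICSI ESC arrays, against 248.5 and 262.7 on fibroblast arrays. The ESC arrays all lay above, but the change was near the threshold (1.15 ± 0.38, adjusted p = 0.0337, and 1.23 ± 0.38, adjusted p = 0.0268). The call of CENPE was lost in both comparisons without either fibroblast array, and in PG-haESCs also without replicate 1 or 2, with arrays averaged per line and without a variance trend (adjusted p up to 0.0990).

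Condensin has a shared SMC2 and SMC4 core, with NCAPG in condensin I and NCAPD3, NCAPG2 and NCAPH2 in condensin II. NCAPG had 5626, 4703, 5582, 4956 and 4374 on PG-haESC arrays, 3444, 5160 and 4034 on ICSI ESC arrays, against 186.7 and 174.4 on fibroblast arrays. It had the smallest adjusted p of the 59 genes in both comparisons, with log2 changes of 4.77 ± 0.22 (adjusted p = 3.63e-08) and 4.53 ± 0.22 (adjusted p = 7.03e-08). SMC2 changed by 2.74 ± 0.24 and 2.93 ± 0.25. SMC4, with 5468 to 7729 on PG-haESC arrays, 5525 to 7601 on ICSI ESC arrays and 1654 on both fibroblast arrays, changed by 2.06 ± 0.22 and 2.01 ± 0.22.

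SMC4 had 6 tested probe sets, and they did not all move together: 2 were called higher in both comparisons, while of the other 4, all dimmer than those 2, none was called in PG-haESCs and 2 were called lower in ICSI ESCs (-1.24 and -1.54). With all probe sets averaged, SMC4 was not called in either comparison (log2 change 0.56 and 0.22). In condensin II, NCAPG2 changed by 2.34 ± 0.22 and 1.78 ± 0.22. NCAPH2 was called in ICSI ESCs alone (1.22 ± 0.28, adjusted p = 0.00445, against 0.70 ± 0.27, adjusted p = 0.0662, in PG-haESCs), and NCAPD3 in neither (0.43 ± 0.27 and 0.39 ± 0.28). NCAPH2 was not called with its probe sets averaged (adjusted p = 0.553).

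The cohesin core gene SMC3 had 8069 to 11100 on PG-haESC arrays, 10220 to 12140 on ICSI ESC arrays, against 2146 and 2503 on fibroblast arrays, with log2 changes of 2.10 ± 0.20 and 2.23 ± 0.21. SMC3 had 5 tested probe sets, of which 4 were called higher in each comparison and 1 was not called (-1.247 and -2.026). Its partner SMC1A was called in PG-haESCs (2.84 ± 0.61, adjusted p = 0.00341) and not in ICSI ESCs (1.16 ± 0.62, adjusted p = 0.177), a difference in calls that rests on the low MES1 array: without it SMC1A was called in ICSI ESCs too (2.01, adjusted p = 9.43e-06). With arrays averaged per line the PG-haESC call of SMC1A was lost (adjusted p = 0.0798). The meiotic paralog SMC1B did not pass the filter and had at most 94.49 on any array. The SMC5/6 complex, which acts in DNA repair, showed less difference. SMC5 had 1690 to 1986 on PG-haESC arrays, 1430 to 2108 on ICSI ESC arrays, against 1732 and 1771 on fibroblast arrays, overlapping throughout (0.08 ± 0.21 and 0.03 ± 0.21). SMC6 was called in ICSI ESCs alone (0.86 ± 0.25, adjusted p = 0.0205), and had 0.60 ± 0.25 (adjusted p = 0.0890) in PG-haESCs. The SMC6 call held under 15 of 21 alternatives (adjusted p up to 0.116) and was lost without fibroblast replicate 2, MES2 or MES3, after centring, with arrays averaged per line and without a variance trend.

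The 25 other kinesins, mostly transport and ciliary motors, had calls in both directions. Their mean log2 signal was 7.59 to 8.03 on PG-haESC arrays, 7.83 to 8.19 on ICSI ESC arrays, against 7.82 and 7.78 on fibroblast arrays, so the 3 groups overlapped. Of the 19 tested, 5 were higher and 3 lower in PG-haESCs and the same numbers in ICSI ESCs, beside 23.0% higher and 17.3% lower, and 22.6% and 17.0%, of all genes tested. The median log2 change was 0 and 0.23. The difference between these kinesins and the mitotic genes was not tested. The 5 higher genes were KIF5C, KIF2A, KIF3C, KIF9 and KIF1B in both.

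KIF5C, a conventional kinesin heavy chain best known from neurons, had 2290, 1864, 2321, 2392 and 1622 on PG-haESC arrays, 2128, 1769 and 3372 on ICSI ESC arrays, against 77.48 and 48.51 on fibroblast arrays. It was dim on both fibroblast arrays and high on all ESC arrays, at least 17.9-fold higher in PG-haESCs (adjusted p = 6.25e-07) and at least 20.2-fold higher in ICSI ESCs (adjusted p = 5.34e-07). These bounds are for the chosen probe set. The other tested KIF5C probe set was called higher by less, with log2 changes of 2.409 (adjusted p = 0.0133) and 2.125 (adjusted p = 0.0264). KIF5B, a paralog of KIF5C and the conventional kinesin found in most cells, had 11810 to 14400 on PG-haESC arrays, 13750 to 16580 on ICSI ESC arrays, against 14390 and 14360 on fibroblast arrays. KIF5B was not called with this probe set (-0.13 ± 0.17 and 0.04 ± 0.17). Its other, dimmer probe set was called higher in ICSI ESCs (0.899, adjusted p = 0.01647) but not in PG-haESCs (0.662, adjusted p = 0.0623). KIF5A, the third paralog, did not pass the filter.

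KIF2A, a microtubule depolymerase that also acts at spindle poles, had 2738 to 3629 on PG-haESC arrays, 2309 to 3554 on ICSI ESC arrays, against 524.6 and 591.0 on fibroblast arrays, with log2 changes of 2.60 ± 0.23 and 2.39 ± 0.23. The other tested probe sets of KIF2A gave smaller changes, 0.72 to 1.41 in PG-haESCs and 0.481 to 1.504 in ICSI ESCs, where 1 was not called. KIF3C, a neuronal kinesin-2 motor, changed by 1.22 ± 0.21 and 1.32 ± 0.22. KIF1B, which carries mitochondria and synaptic vesicle precursors, changed by 0.69 ± 0.23 (adjusted p = 0.0377) and 0.96 ± 0.23 (adjusted p = 0.00740), and its PG-haESC call held under 14 of 22 alternatives (adjusted p up to 0.227). The KIF1B call was lost without either fibroblast array, without PG-haESC replicate 2, 3 or 4, after centring, without a variance trend and with arrays averaged per line, the last in ICSI ESCs too (adjusted p = 0.0665). KIF9, a motor of cilia and flagella, changed by 1.38 ± 0.29 and 1.45 ± 0.29 with its chosen probe set, but another probe set was called lower (-2.23 and -1.54), so its direction depends on the probe set.

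Fewer kinesins were lower in ESCs. KIFC2, a minus-end motor described in neurons, had 56.42, 19.28, 35.87, 24.23 and 113.5 on PG-haESC arrays, 19.00, 90.99 and 15.11 on ICSI ESC arrays, against 591.2 and 669.7 on fibroblast arrays. It lay above the array median on 1 of 5 PG-haESC arrays, on 1 of 3 ICSI ESC arrays and on both fibroblast arrays, and had fitted log2 changes of -3.74 ± 1.02 (adjusted p = 0.0132) and -4.41 ± 1.03 (adjusted p = 0.00548). These rest on signals mostly at or below the array medians. With such signals raised to the median, an alternative chosen after seeing the data, the changes were -2.61 and -2.65, both called. The PG-haESC call of KIFC2 was lost without fibroblast replicate 2 and with arrays averaged per line (adjusted p up to 0.115). KIF13A, which moves endosomal cargo, had 190.8 to 269.1 on PG-haESC arrays, 218.1 to 311.5 on ICSI ESC arrays, against 764.2 and 671.9 on fibroblast arrays, with log2 changes of -1.64 ± 0.33 and -1.42 ± 0.33, neither of which was called with its probe sets averaged (adjusted p = 0.132 and 0.154). KIFC3, a minus-end motor of epithelial junctions, was called lower in PG-haESCs (-1.63 ± 0.53, adjusted p = 0.0304) and had an adjusted p of 0.0799 in ICSI ESCs, and its call was lost without either fibroblast array, without PG-haESC replicate 3 and with arrays averaged per line (adjusted p up to 0.119). KIF3B, of the heterotrimeric motor of cilia, was called lower in ICSI ESCs (-0.71 ± 0.25, adjusted p = 0.0478) and had an adjusted p of 0.0620 in PG-haESCs. The KIF3B call held under 7 of 21 alternatives (adjusted p up to 0.447) and was lost when any single array was left out except MES1 and MPH2.

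The 10 other kinesins tested were called in neither comparison: KIF1C, KIF5B, KIF7, KIF16B, KIF17, KIF19, KIF21A, KIF24, KIF26A and KIF26B. KIF21A, an axonal motor, had 363.3 to 1078 on PG-haESC arrays, 281.4 to 960.7 on ICSI ESC arrays, against 1539 and 1445 on fibroblast arrays (-1.44 ± 0.54, adjusted p = 0.0606, and -1.37 ± 0.55, adjusted p = 0.0746). KIF7, a ciliary regulator of Hedgehog signalling, had 350.0 to 459.2 on PG-haESC arrays, 285.4 to 461.8 on ICSI ESC arrays, against 184.2 and 237.6 on fibroblast arrays (0.89 ± 0.33, adjusted p = 0.0554, and 0.88 ± 0.33, adjusted p = 0.0610). All 8 ESC arrays lay below the fibroblast arrays for KIF21A and above them for KIF7, without passing the threshold.

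**Figure D3:**
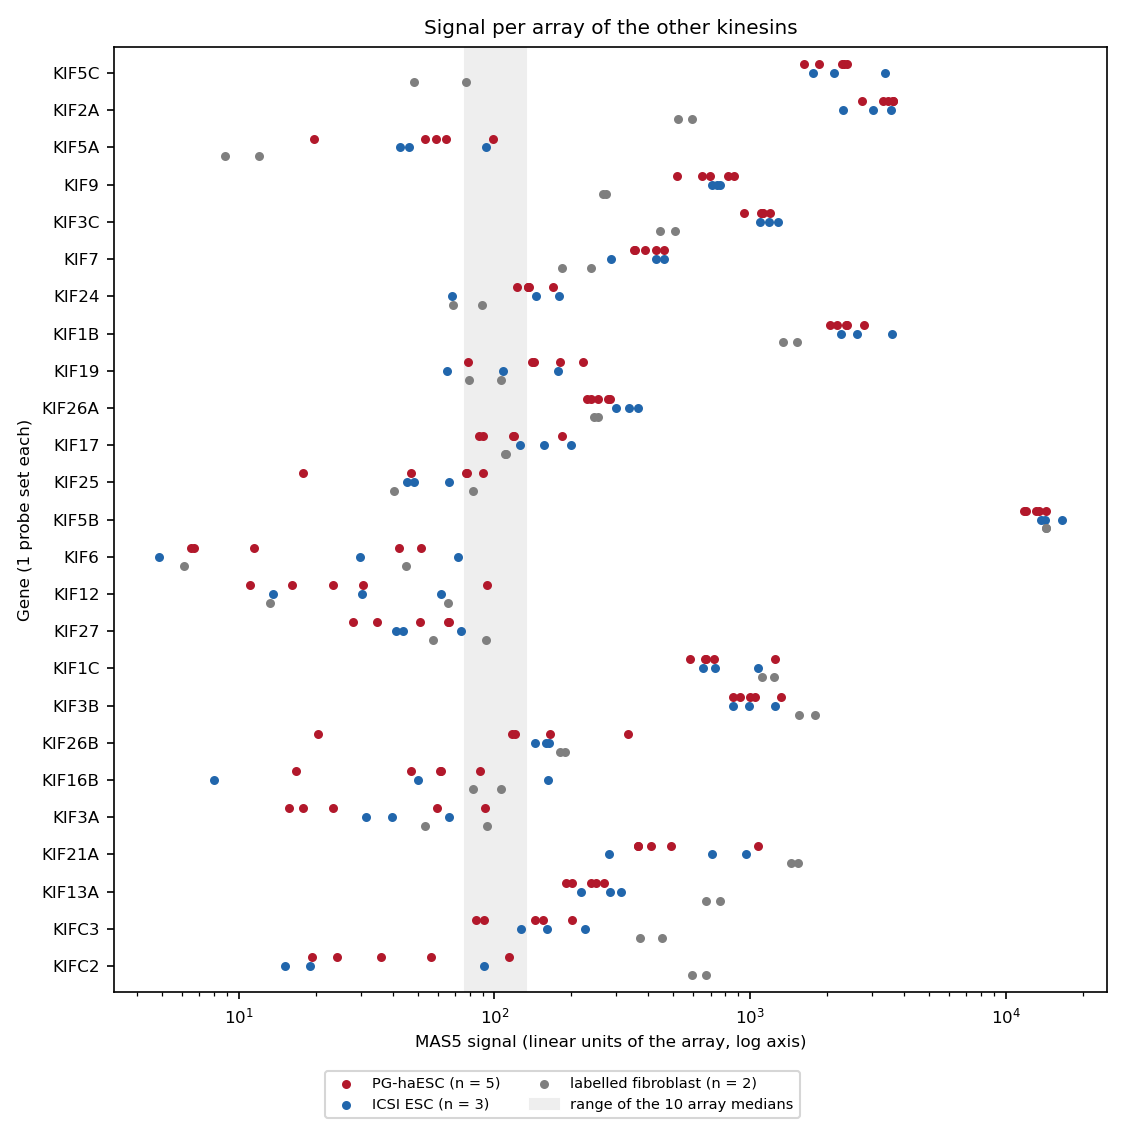
MAS5 signal of each array, on a log axis, for the 25 kinesins outside the mitotic set, with groups of arrays as colours and the range of the 10 array medians shaded. KIF5C and KIF2A lie to the right in both ESC groups, KIFC2 and KIF13A to the left, KIF5B is high on all 10 arrays, and many of the rest fall within or near the shaded range.

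Other genes of the same machinery, outside the symbol rule, were counted from lists, beside the 23.0% and 22.6% of all genes tested that were called higher and the 17.3% and 17.0% called lower in PG-haESCs and ICSI ESCs. Of 8 tested genes of the spindle midzone and cytokinesis, 8 were higher in PG-haESCs and 8 in ICSI ESCs, and of 13 tested genes of mitotic entry and exit, 11 and 11 were higher and none lower. CCNB1, cyclin B1, had the smallest p of the entry and exit list, with a geometric mean of 13750 in PG-haESCs, 10280 in ICSI ESCs and 438.8 in fibroblasts (log2 change 4.94 and 4.55). UBE2S, which extends ubiquitin chains for the anaphase-promoting complex, followed at 3194, 3475 and 263.4. In the spindle list ECT2, which activates RhoA at the cleavage site, had 4738, 3793 and 479.2, and CKAP2, a microtubule-associated protein of the spindle, 9079, 7666 and 1261.

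Of 16 tested genes of the outer kinetochore and CENP-A loading, 12 were higher and 1 lower in each ESC group. OIP5, of the complex that licenses CENP-A loading, averaged 3035 in PG-haESCs, 2512 in ICSI ESCs and 273.3 in fibroblasts, and NUF2, of the microtubule-binding NDC80 complex, 1800, 1389 and 79.63. The lower gene was BUB3, a checkpoint protein, at 1468, 1446 and 4086. Of 12 tested genes of the passenger complex and cohesion, 7 were higher and 1 lower in PG-haESCs, and 5 higher and 1 lower in ICSI ESCs. PTTG1, securin, averaged 28570, 27920 and 3428, CDCA8, borealin, 1670, 1505 and 486.2, and the lower gene STAG1, a cohesin subunit, 58.71, 37.77 and 1238. Both ESC means of STAG1 lay below the lowest array median, 76.77. The NUF2 mean in fibroblasts lay below both fibroblast array medians (121.5 and 110.2). The size of either change is therefore uncertain. Across these 4 lists, no gene was called between PG-haESCs and ICSI ESCs, where 0.576% of all genes tested were called in either direction. HJURP and ZW10 in the kinetochore list, STAG2 and INCENP in the cohesion list, ASPM and CKAP2 in the spindle list and CCNB1 and FZR1 in the entry and exit list had the smallest p there, and STAG2 had the lowest adjusted p of these (0.1705).

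Haploid and diploid ESCs were compared directly to ask whether the genome content of a stem cell goes with a different level of its division machinery. 1 of the 59 genes tested was called higher in PG-haESCs, KIF4A, and 0 were called lower, where 0.507% of all genes tested were higher and 0.0687% lower. At an unadjusted p under 0.05 there were 4 of 59, where 8.79% of all genes tested were at that level. The median log2 change was 0.01 over the 59 genes and -0.02 over all genes tested. For 53 genes the ranges of the arrays overlapped. PG-haESC arrays lay all above ICSI ESC arrays for 3 genes (5.07% of all genes tested), KIF4A, SMC1A and NCAPG2, and all below for 3 (3.22%), CENPM, CENPO and KIF26A.

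KIF4A, the chromokinesin that organises chromosome arms and the spindle midzone, had 2620, 2454, 2598, 2487 and 3219 on PG-haESC arrays, 1417, 1572 and 1459 on ICSI ESC arrays, against 215.2 and 223.7 on fibroblast arrays. The lowest PG-haESC array lay above the highest ICSI ESC array, and both groups lay above the fibroblasts. The difference was 1.85-fold, a log2 change of 0.89 ± 0.16 (adjusted p = 0.0375), higher on 5 of 5 PG-haESC arrays. The call held under 9 of 22 alternatives, with log2 changes of 0.78 to 0.95 and adjusted p of 0.0113 to 0.740. Leaving out any single array other than MES1 ended it. The only KIF4A probe set carries no check by a second one, and KIF4B, a near-identical copy of the gene, has no probe set under its symbol, so signal of the copies cannot be separated.

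KIF4A, SMC1A and CENPI are the 3 X-linked genes among the 65 that could be placed on the assembly T2T-MFA8v1.1. SMC1A had 10050, 8621, 10550, 9191 and 8002 on PG-haESC arrays, 860.0, 5412 and 4797 on ICSI ESC arrays, against 1166 and 1367 on fibroblast arrays. All PG-haESC arrays lay above all ICSI ESC arrays, and MES1 lay even below the fibroblast arrays. The log2 change was 1.68 ± 0.51 and was not called (adjusted p = 0.274). Without MES1 it was 0.84 and was called (adjusted p = 0.0275), and KIF4A was then at 0.83 (adjusted p = 0.0346), so 2 genes were called without that array. Calls rose over the whole array as well, to 1.05% of all genes tested higher and 0.4% lower, from 0.507% and 0.0687%. MES1 was also the ESC array with the most fibroblast and feeder marker signal, and the part of this in its SMC1A value was not tested.

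CENPI had 377.7, 380.7, 369.2, 275.2 and 528.2 on PG-haESC arrays, 271.3, 376.4 and 355.2 on ICSI ESC arrays, against 101.9 and 100.3 on fibroblast arrays. The ESC groups overlapped, and the log2 change of 0.26 ± 0.29 was not called (adjusted p = 0.967). Among the 56 genes tested that are not placed on the X chromosome, 0 were called, where 0.576% of all genes tested were called in either direction. At an unadjusted p under 0.05 there were 2 of the 56, beside 8.79% of all genes tested, and the median log2 change was 0.00. A link of the calls to the X chromosome was not tested. The ESC groups differ in ploidy, in parental origin of the genome and in line, and may differ in the number of X chromosomes and in the culture additives, which the labels give for PG-haESCs only. These cannot be told apart.

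**Figure D4:**
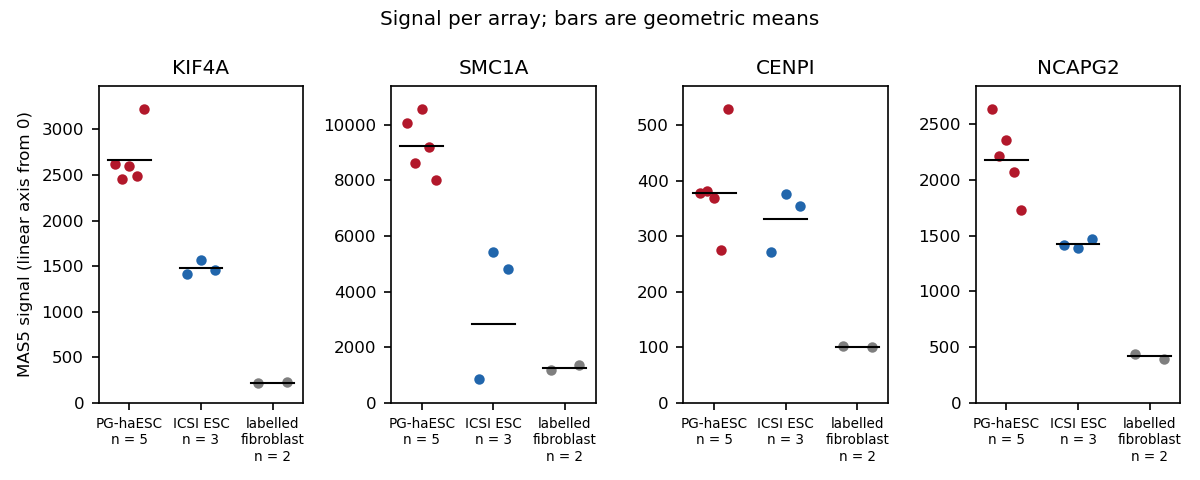
MAS5 signal per array on a linear axis from 0 for the X-linked genes KIF4A, SMC1A and CENPI and for NCAPG2, which is not X-linked. PG-haESC, ICSI ESC and fibroblast arrays run from left to right, with bars at geometric means. PG-haESC arrays lie above ICSI ESC arrays for KIF4A, SMC1A and NCAPG2 and overlap them for CENPI. The lowest ICSI ESC array of SMC1A, at 860.0, lies below the fibroblast arrays.

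NCAPG2, a condensin II subunit, had 2632, 2211, 2357, 2070 and 1727 on PG-haESC arrays and 1415, 1391 and 1472 on ICSI ESC arrays. The groups did not overlap, but the log2 change of 0.56 ± 0.18 was not called (adjusted p = 0.325). The chosen probe set of its partner NCAPH2 ran the other way, with 1131, 720.7, 807.1, 895.5 and 860.0 on PG-haESC arrays and 1214, 1058 and 1517 on ICSI ESC arrays. PG-haESC replicate 1 lay above MES2, and the log2 change was -0.52 ± 0.23 (adjusted p = 0.619). The 4 tested probe sets of NCAPH2 gave -0.564 to 0.983 and none was called, so its direction depends on the probe set. NCAPD3, the third subunit measured, changed by 0.04 ± 0.23.

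The genes whose PG-haESC arrays all lay below differed by little: CENPM by -0.24 ± 0.16, CENPO by -0.44 ± 0.56 and KIF26A, a kinesin without motor activity, by -0.40 ± 0.25. CENPM had 1373 to 1505 on PG-haESC arrays and 1519 to 1888 on ICSI ESC arrays, so the groups were close to touching. None of the 6 genes with the largest log2 changes in PG-haESCs against fibroblasts was called between haploid and diploid ESCs. CENPA differed by -0.06 ± 0.37, KIF5C by -0.22 ± 0.28, NCAPG by 0.24 ± 0.18, MAD2L1 by 0.13 ± 0.20, KIF2C by -0.15 ± 0.18 and KIF23 by -0.03 ± 0.26. Of the remaining groups, the kinases AURKA and AURKB differed by 0.20 ± 0.21 and 0.03 ± 0.18, and the other kinesins tested had a median of -0.11 with 0 of 19 called.

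These values leave room for differences of a limited size. The 95% interval of the difference lay within 1 log2 unit of 0 for 43 of the 59 genes, and for 32 of the 40 that are not other kinesins. For the other 16 genes the interval reached past 1 log2 unit, so a change of that size was not excluded at this number of arrays. The median SD of a gene over arrays was 0.23 log2 units in PG-haESCs and 0.26 in ICSI ESCs.

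**Figure D5:**
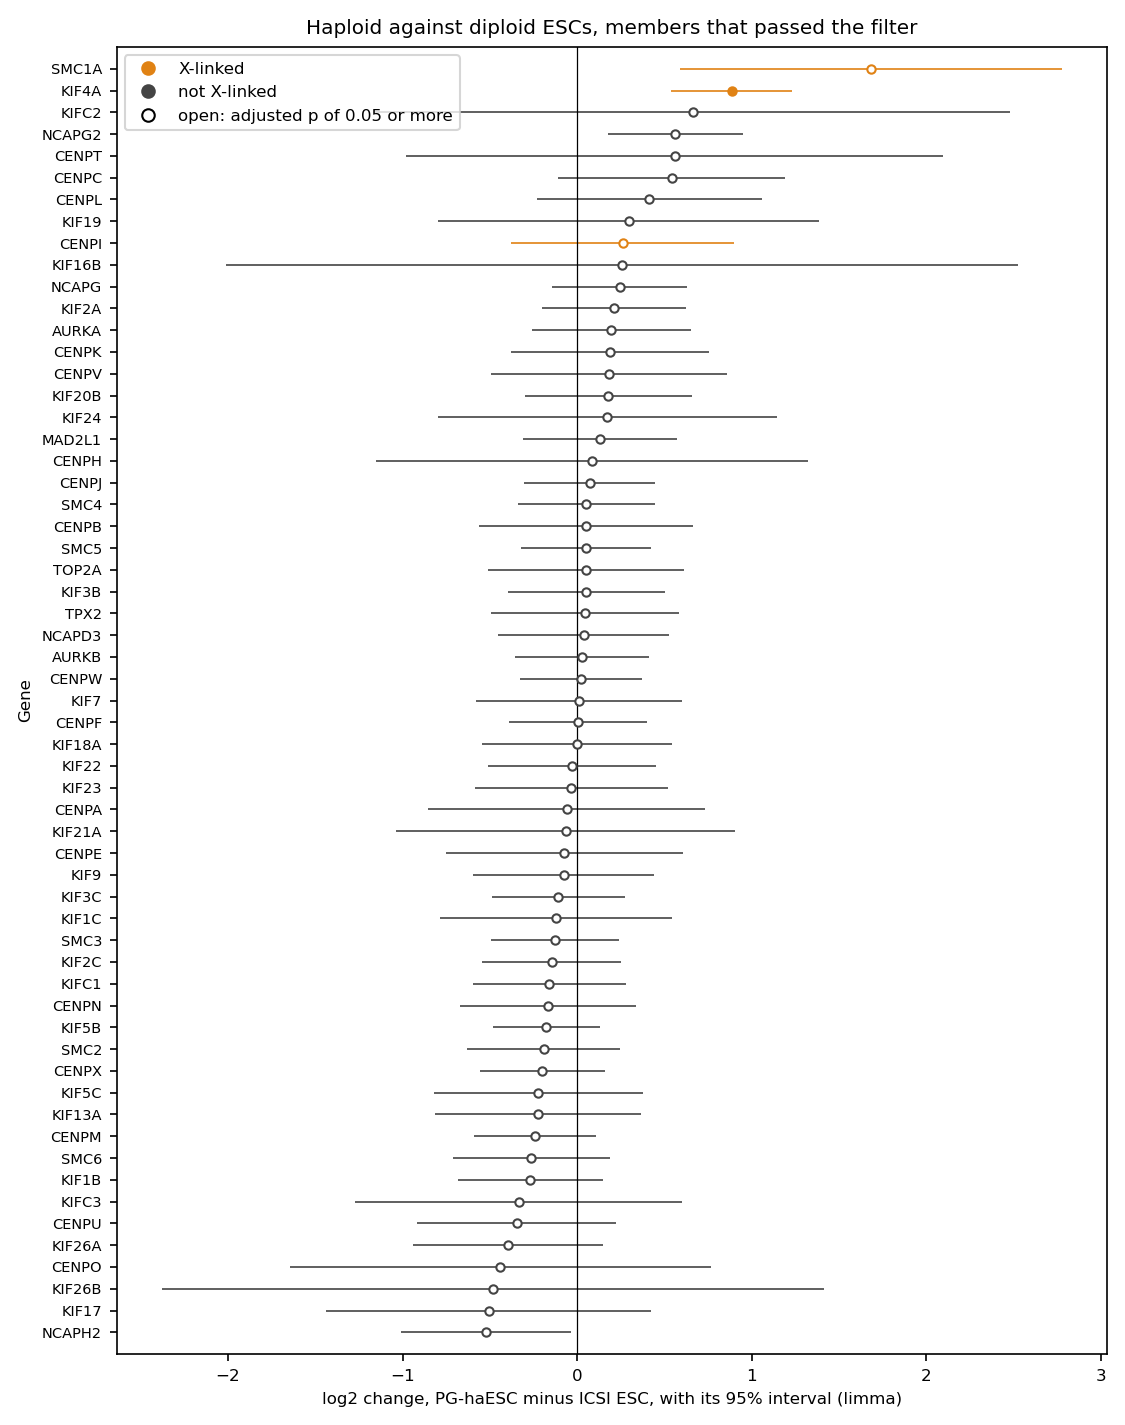
The x axis is the log2 change, PG-haESC minus ICSI ESC, with its 95% interval from limma, and the y axis lists the 59 genes that passed the filter, with X-linked genes in orange and open points for an adjusted p of 0.05 or more. Most points lie close to 0, only KIF4A is filled, and SMC1A has the largest change with a wide interval.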

How the data were processed

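The deposited table holds linear signal intensity per probe set, which the authors made with MAS5, per the submitters' processing notes (release: not given in the sources used here). With 2% of probe sets trimmed at each end, each array averaged 500, and array medians ran from 76.77 to 132.7. From 52865 probe sets, 158 controls were left out, and 34139 above the array median on at least 2 arrays were tested. In the array's annotation 24956 probe sets had 1 symbol, 361 several and 27390 none. Groups followed the labels. limma 3.58.1 in R 4.3.3 fitted log2 signal of all 10 arrays in 1 model with a mean per group, cell line as a random block (correlation 0.286) and a variance trend, with 7 residual and 5.37 prior degrees of freedom. Tests were two-sided, and Benjamini-Hochberg adjustment ran over all probe sets tested. A fold is a lower bound where all arrays of the dimmer group lay at or below their median: array means of log2 signal were compared, with the dim group raised to its medians. The method was tested on simulated data. All members were named. Values per array or their range were given for many of them, among them the X-linked genes and the measured genes listed by symbol. From each further list the 2 smallest p were named, in PG-haESCs against fibroblasts and against ICSI ESCs. BUB3 and STAG1 were added as the genes called lower. The members and lists were chosen with earlier results of these data known. No sequences were used here. Figures used matplotlib 3.10.9 (Python 3.11.15). The alternatives were another filter, offset, normalization, handling of line, variance or probe sets, the compared groups alone and leaving out each array; raising signals under the array median to that median was chosen after seeing the data.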

Additional observations from a re-analysis of the deposited data

Results flagged for a closer look

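In 6 of the 59 genes tested, 1 PG-haESC array lay far from the other 4 by Dixon's criterion, which chance alone meets in about 1 of 20 groups. In 5 of the 6 it was replicate 5, the only array of the line MPH2 and one of passage 4. That array was high for AURKA (4488, nearest 2971), for CENPV (2642, nearest 1238), for KIF21A (1078, nearest 490.5) and for KIF4A (3219, nearest 2620), and low for CENPC (535.8, nearest 770.1). KIF1C, a motor of secretory transport, was high on replicate 2, MPH1 at passage 11 (1253, nearest 723.8). Line, passage and array cannot be told apart for MPH2. Without the MPH2 array KIF4A differed between PG-haESCs and ICSI ESCs by 0.78 on the log2 scale and was not called (adjusted p = 0.0565).

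The change of KIF4A against fibroblasts differed between the ESC groups by 0.886 on the log2 scale (adjusted p = 0.0375). Since both changes share the fibroblast arrays, this difference equals the direct haploid against diploid ESC comparison given above and is no further test. Its call held under 9 of 22 alternatives.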

How the results depend on the processing

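The values above were recomputed under 22 alternatives (21 for ICSI ESCs against fibroblasts, where the fit of the compared groups alone could not be made because the line correlation was not estimable from those 5 arrays). Between PG-haESCs and ICSI ESCs, KIF4A was the only gene called. With arrays centred on their medians, averaged per line, without a variance trend or with only the groups compared, 0 genes were called. Of all genes tested, 0.01%, 0%, 0.02% and 0.27% were called higher under these settings in turn, beside 0.51% as reported. Leaving out 1 array gave 0 to 2 genes, where 0.03% to 1.05% of all genes tested were called higher. The 2 were KIF4A and SMC1A without MES1, the setting with 1.05%. The causes were not tested. The number called against fibroblasts stayed within 1.5 times the reported one throughout, at 32 to 45 in PG-haESCs and 36 to 44 in ICSI ESCs. Across these settings 14.3% to 31.39% of all genes tested were called higher and 8.96% to 23.03% lower in PG-haESCs. For ICSI ESCs the shares were 16.45% to 31.43% higher and 10.77% to 21.67% lower. The median log2 change of the 59 genes against fibroblasts remained above 0. In PG-haESCs it was 1.376 with no filter (66 genes), 2.154 with the 75th percentile filter (48 genes), 1.333 with an offset of 32, 2.00 after quantile normalization, 2.071 after centring, 1.558 with all probe sets of a gene averaged, 1.378 with dim signals raised to the array median, and 1.413 to 1.88 with 1 array left out. In ICSI ESCs the same settings gave 1.314, 1.894, 1.353, 1.828, 1.737, 1.226, 1.226 and 1.435 to 1.76. Quantile normalization moved the median of all genes tested to 0.24 and 0.25 and centring to 0.39 and 0.36, beside 0.06 and 0.08 as reported. With all probe sets averaged, KIF20B turned to 1.488 in PG-haESCs (adjusted p = 0.000322) and 1.209 in ICSI ESCs (adjusted p = 0.00158), and KIF9 to -0.343 and -0.144, uncalled; their probe sets disagree. No paired analysis was possible because the replicate numbers only name arrays and pair no samples across groups. The number of arrays, above all 2 of fibroblasts, and signals near the array medians limit the precision.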
